A study of Mus musculus with 17 samples.

Results

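The step from spermatogonia (SPG) to pre-leptotene spermatocytes (PreL) was followed in 6 of the 17 libraries of the series, 3 of WT SPG and 3 of WT PreL. These are the SPG replicates 1, 2 and 3 and the PreL replicates 1, 2 and 4. Of the 23282 genes listed, 18851 had a read in at least 1 of the 6 libraries, and the 12657 that averaged 10 reads or more over them were tested. The whole study set WT mice against mice in which *Nat10* was deleted in germ cells by Stra8-Cre, at 3 stages of spermatogenesis. The mutant libraries and those of leptotene and zygotene spermatocytes were not used for the comparison. Both groups came from mice labelled Wildtype of the strain C57BL/6, and the methods give C57BL/6J. No age, treatment or Cre allele is named for the animals of the sorted WT cells. Testicular cells were dissociated with enzymes, stained with a Hoechst dye and propidium iodide, and separated by fluorescence-activated cell sorting (FACS). Nothing in the labels says that the libraries of a group came from separate animals, so the p-values measure the spread between these libraries, which may be technical.

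Spermatogonia are the mitotic germ cells of the testis. The undifferentiated ones renew themselves, and retinoic acid turns part of them into differentiating spermatogonia that express *Kit*, divide several times and then become pre-leptotene spermatocytes. In pre-leptotene cells retinoic acid and the factors STRA8 and MEIOSIN switch on the meiotic programme, the last DNA replication before meiosis takes place, and cohesins and axis proteins are laid onto the chromosomes. Programmed double-strand breaks, homologous pairing and the synaptonemal complex follow in leptotene and zygotene.

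RNA was measured by Smart-seq2, which copies polyadenylated RNA from an oligo(dT) primer and amplifies the cDNA by PCR, with external spike-in RNA (ERCC) in the lysate. The libraries held from 11587442 to 13042071 recovered reads in SPG and from 10574858 to 10724364 in PreL. Between 14671 and 15721 genes had a read in each library. The total of ERCC-calibrated counts, which the authors adjusted for the cell input, was 14483069 ± 1408430 (SD, n = 3) in SPG and 15616198 ± 2075557 in PreL. The ratio of 1.08 did not differ from 1 beyond the spread of the libraries (exact permutation test, two-sided, p = 0.4, where 0.1 is the smallest p that 3 against 3 libraries allow). In recovered reads the ratio was 0.873 (p = 0.1, the same exact test), so the direction of the total depended on the calibration. In the first principal component of the log2 values, with 43.5% of the variance, the SPG libraries lay between -55.6 and -21.9 and the PreL libraries between 28.9 and 51.6. Levels are given below as rescaled values. These are the ERCC-calibrated counts divided by a size factor for each library, always in the order of replicates 1, 2 and 3 for SPG and 1, 2 and 4 for PreL. In sorted bulk samples fewer cells of a type and less RNA per cell cannot be told apart.

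The labels were checked against marker genes before the comparison. *Kit*, the receptor of differentiating spermatogonia, had rescaled values of 2411, 2588 and 2120.4 in SPG and 2169.9, 1774 and 2402 in PreL. The groups overlapped for *Kit*. *Gfra1*, the GDNF co-receptor of undifferentiated spermatogonia, had only 38.3, 0 and 46.4 in SPG and 19.9, 1.42 and 0 in PreL. Some factors of the most undifferentiated cells were close to absent in both groups, with a mean of 0 reads for *Nanos2*, 0.333 for *Neurog3* and 0.5 for *Pax7*. *Stra8*, the gatekeeper of meiotic entry, was read strongly in every library of both groups, with 5376, 4184 and 4713 in SPG and 9592, 8950.3 and 10842 in PreL. Other members of the undifferentiated list were well read, among them *Taf4b* with 2561, 3445 and 3602 in SPG and 3810.3, 3011 and 4219.7 in PreL and *Foxo1* with 1164, 1085 and 1073 in SPG and 1001, 834 and 1089.7 in PreL, and 16 of the 26 reached the read minimum.

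Genes were called at an adjusted p under 0.05 with a log2 fold change beyond 1 in either direction (limma, Benjamini-Hochberg adjustment over all 12657 genes). By this rule 322 genes (2.54%) were higher in PreL and 153 (1.21%) were lower, 3.75% of all genes tested. By the adjusted p alone 4.27% were higher and 3.02% lower. Fold changes are on the scale of log2(rescaled value + 10), which understates the change of low genes. The median log2 fold change of all genes tested was 0.0055, so the groups were centred. In 1970 genes (15.6%) every PreL library lay above every SPG library, and in 1878 genes (14.8%) every PreL library lay below. The counts depended on single libraries. Without SPG replicate 3 the calls numbered 78 higher and 27 lower, and without PreL replicate 2 they numbered 91 and 57. Leaving out SPG replicate 2 gave 198 higher and 76 lower genes, and leaving out SPG replicate 1 gave 96 lower genes. Of the 322 higher genes, 191 (59.3%) had their highest value in PreL replicate 2. Of the 153 lower genes, 80 (52.3%) had theirs in SPG replicate 2.

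**Figure D1:**
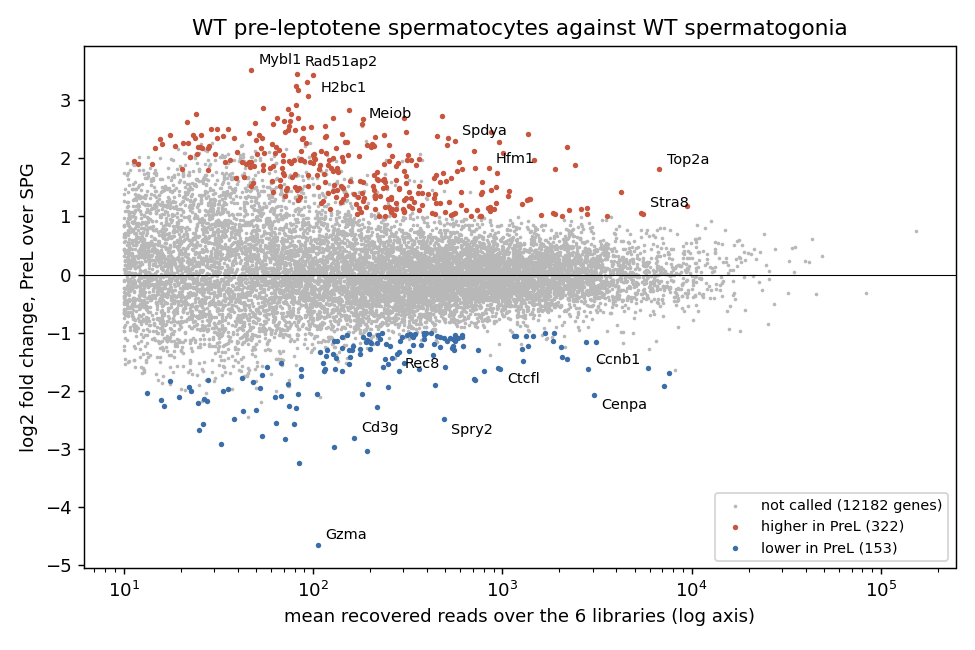
Log2 fold change of PreL over SPG (y axis, no unit) against the mean recovered reads over the 6 libraries (x axis, log scale), 1 point per gene tested. Red points are the 322 genes higher in PreL, blue points the 153 genes lower, and gray points the genes not called. The largest rise belonged to *Mybl1* and the largest fall to *Gzma*.

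The genes of smallest p that averaged 100 reads or more are given first. *Top2a*, the type II topoisomerase of replicating cells, and *Cenpa*, the centromeric histone H3 variant, had the same and smallest adjusted p (9.53e-05, limma). *Top2a* rose 3.52-fold and *Cenpa* was 4.19-fold lower. They were followed among the rising genes by *Spdya*, *Hfm1*, *Esco2*, *Sec11c*, *Mlf1*, *Hist1h2ba* and *1700027A15Rik*. Among the falling genes *Ccnb1*, *Gzma*, *Jkamp*, *Slc35a1*, *Rpph1*, *Cd3g* and *Zfand1* came next. Exons of *1700027A15Rik*, annotated as antisense, overlap *Tnp1*, a rising gene described below, so the 2 may share reads. Exons of *Rpph1* overlap *Ccnb1ip1*, and those of *Jkamp* overlap *Ccdc175*. *Sec11c*, a subunit of the signal peptidase, had 1081, 1062 and 989 in SPG and 2345, 2574 and 2788 in PreL. *Slc35a1*, the Golgi transporter of CMP-sialic acid, had 981, 1036 and 782 in SPG and 267, 349.7 and 294 in PreL. *Jkamp*, a membrane protein of endoplasmic reticulum quality control, had 2071, 2460.2 and 2229 in SPG and 961, 882 and 917 in PreL. None of these groups overlapped. Each of the 3 calls held without any single library. The most abundant genes that fell were picked out after their values were seen. *Twf1*, which encodes the actin monomer binding protein twinfilin, had 8137, 19248 and 14127 in SPG and 1256, 4675 and 7015 in PreL (log2 fold change -1.91, limma adjusted p = 0.0449). *Ddhd2*, a phospholipase, had 9688, 18836 and 15088 in SPG and 2415, 4471 and 7469.6 in PreL (log2 fold change -1.70, limma adjusted p = 0.0184). For both genes the lowest SPG library lay above the highest PreL library. The call of *Twf1* was lost without SPG replicates 1, 2 or 3 or PreL replicate 2 (log2 fold changes -2.25 to -1.64, adjusted p from 0.0531 to 0.144), without rescaling of the calibrated values, with a pseudocount of 1, with no filter on low values, in edgeR and in DESeq2. That of *Ddhd2* was lost without SPG replicates 2 or 3 or PreL replicate 2 (log2 fold changes -1.72 to -1.49, adjusted p from 0.057 to 0.0874) and with no filter on low values.

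By size, the largest rises among genes that averaged 100 reads or more, with groups apart, belonged to *Hist1h2ba*, *1700028K03Rik*, *Slc2a3*, *Tdrd6*, *1700016P04Rik*, *Klk1b8*, *4930528F23Rik* and *Heatr7b2*. *Slc2a3*, the glucose transporter GLUT3, had 260.5, 55.8 and 129 in SPG and 718, 2327 and 418 in PreL (log2 fold change 2.73, standard error 0.59, adjusted p = 0.0232). Its call was lost without SPG replicates 2 or 3 or PreL replicate 2 (log2 fold changes 2.05 to 2.75, adjusted p from 0.0631 to 0.0903) and with no filter on low values. *Klk1b8*, a kallikrein protease, had 104, 49.1 and 36.6 in SPG and 506, 450.2 and 338 in PreL (log2 fold change 2.68, standard error 0.37, adjusted p = 0.00473). *1700028K03Rik*, some of whose exons overlap *Glmn*, had 89.3, 35.8 and 24.4 in SPG and 377, 379 and 361 in PreL (log2 fold change 2.83, standard error 0.40, adjusted p = 0.00473). The calls of *Klk1b8* and *1700028K03Rik* held in every alternative. The largest falls were those of *Gzma*, *Arhgdib*, *Ly6a*, *Cd3g*, *Spry2*, *2700089E24Rik*, *Cenpa* and *S100a6*. *2700089E24Rik*, annotated as protein-coding, had 336, 685 and 363 in SPG and 64.9, 110.4 and 77.5 in PreL (log2 fold change -2.28, standard error 0.34, adjusted p = 0.0059), and this call held throughout. *S100a6*, a calcium-binding protein, had 178, 223 and 227 in SPG and 55.6, 83.5 and 13.2 in PreL (log2 fold change -2.06, standard error 0.49, adjusted p = 0.0317), a call lost without SPG replicates 1, 2 or 3 (log2 fold changes -2.18 to -2.01, adjusted p from 0.0635 to 0.113), with no filter on low values and in edgeR. Several of the falling genes are known from blood cells and are described with the lymphocyte markers.

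Among 25 regulators of meiotic entry, 23 were tested, and 2 of them rose and none fell, with a median log2 fold change of 0.053. Of all genes tested, 2.54% were called higher and 1.21% lower. *Stra8* rose 2.06-fold (log2 fold change 1.04, standard error 0.13, adjusted p = 0.00391). Its groups, given above, did not overlap. The call lay near the fold threshold and was lost without SPG replicate 2 (log2 fold change 0.95, adjusted p = 0.0145) and without PreL replicate 4 (log2 fold change 0.97, adjusted p = 0.00912). *Mybl1* encodes the transcription factor A-MYB, which drives the pachytene programme. It had 1.06, 0 and 2.44 in SPG and 134, 60.9 and 197 in PreL and at most 3 reads in every SPG library, so it was at least 36.2-fold higher in PreL, counted against a floor of 3 reads per library (limma adjusted p = 0.0059). This was the largest log2 fold change of all genes tested, and it held in every alternative that tested the gene. The RNA-binding proteins of this list showed no call. *Meioc* (listed as *Gm1564*) had a log2 fold change of 0.21 (adjusted p = 0.423), *Ythdc2* 0.33 (adjusted p = 0.237) and *Dazl*, the translational regulator of germ cells, 0.053 (adjusted p = 0.865). *Max* and *Mga*, subunits of the repressive PRC1.6 complex that keeps meiotic genes silent, had 0.77 and 0.50 and were not called (adjusted p = 0.0934, then 0.0993). *Meiosin* was not analysed here. None of the 15 tested genes of retinoic acid metabolism and its receptors was called. *Crabp1*, a cytoplasmic retinoic acid binding protein, had 1342, 1129 and 1318 in SPG and 977, 1056 and 823 in PreL. *Cyp26b1*, which degrades retinoic acid, had 88.2, 81 and 100.1 in SPG and 90, 63.7 and 93.6 in PreL. The receptor gene *Rarg* had 60.6, 41.2 and 69.6 in SPG and 30.5, 18.4 and 57 in PreL. Of these 3 genes, *Crabp1* alone had groups that were apart.

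**Figure D2:**
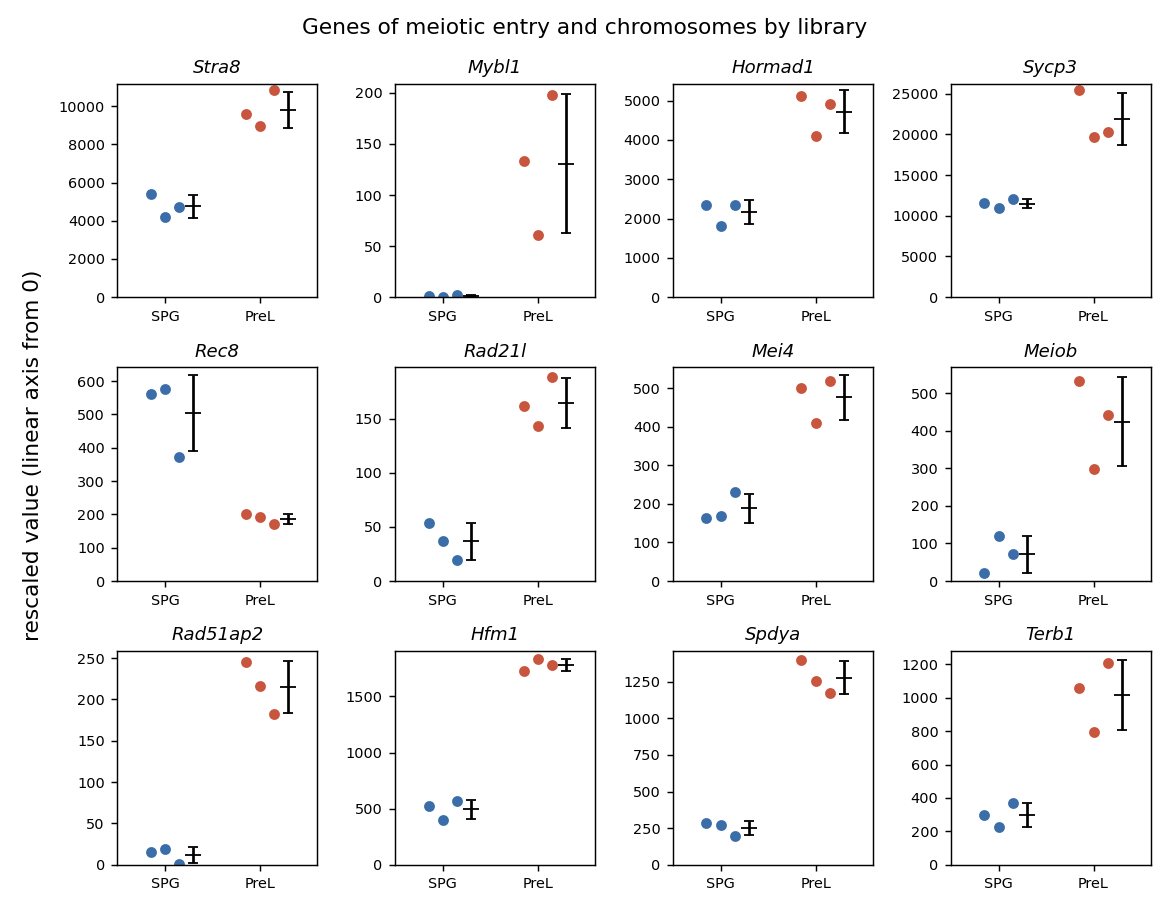
Rescaled value (y axis, linear from 0, scaled to each gene) of 12 genes in the 3 SPG libraries (blue) and the 3 PreL libraries (red), with replicates in the order 1, 2, 3 and 1, 2, 4. Horizontal ticks and bars give the mean and SD of each group. The groups are apart for all 12 genes, with *Rec8* lower in PreL and the other 11 higher.

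The 79 tested genes of the chromosome lists described next include 65 with a RefSeq promoter window of 250 bases before and 50 after the start site (74 windows, GRCm38.p6). The motif CNCCTCAG, which is bound by STRA8 and MEIOSIN, was in 15 of the 74 windows (20.3%) on either strand, against 9.48% of the 12827 windows of all genes tested. The E-box CACGTG, the same on both strands, was in 17.6% against 10.1%, and the E2F motif TTCCCGCC in 13.5% against 4.13%. A match is a description of the letters and not a site. In the 10 windows of members called higher, CNCCTCAG was in 2 (20%), CACGTG in 2 and TTCCCGCC in 4. The windows of *Mei4*, *Iho1*, *Rad21l* and *Terb1*, rising genes described below, held none of the 3. *Hormad1* and *Hfm1* are shown because both genes rose and their windows hold different motifs, and *Stra8* because its window held none of the 3. Capitals mark CACGTG and TTCCCGCC in *Hormad1* (chr3:95559427-95559726, plus strand) and CNCCTCAG in *Hfm1* (chr5:106925841-106926140, minus strand). *Stra8* lies at chr6:34920698-34920997 (plus strand).
Hormad1: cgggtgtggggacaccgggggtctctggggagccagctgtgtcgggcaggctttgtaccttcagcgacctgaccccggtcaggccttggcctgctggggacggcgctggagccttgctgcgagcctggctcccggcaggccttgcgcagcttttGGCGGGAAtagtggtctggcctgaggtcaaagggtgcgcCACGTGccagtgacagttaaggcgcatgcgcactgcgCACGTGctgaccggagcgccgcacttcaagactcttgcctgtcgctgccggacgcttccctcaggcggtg
Hfm1: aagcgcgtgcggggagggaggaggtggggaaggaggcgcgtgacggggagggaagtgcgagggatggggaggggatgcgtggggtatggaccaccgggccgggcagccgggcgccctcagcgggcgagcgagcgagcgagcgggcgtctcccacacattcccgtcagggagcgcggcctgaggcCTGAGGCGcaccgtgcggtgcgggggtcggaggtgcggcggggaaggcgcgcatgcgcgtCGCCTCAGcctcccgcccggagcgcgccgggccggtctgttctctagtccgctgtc
Stra8: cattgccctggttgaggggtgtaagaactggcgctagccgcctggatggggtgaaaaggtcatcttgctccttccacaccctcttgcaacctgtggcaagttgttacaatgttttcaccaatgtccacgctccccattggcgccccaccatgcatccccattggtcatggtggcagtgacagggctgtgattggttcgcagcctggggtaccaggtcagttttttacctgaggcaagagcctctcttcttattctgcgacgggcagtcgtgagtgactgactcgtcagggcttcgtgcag

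All 11 genes of the synaptonemal complex and the chromosome axis were tested. Their median log2 fold change was 0.63, against 0.0055 over all genes, and in 8 of the 11 every PreL library lay above every SPG library, against 15.6% of all genes. Of the 11, 6 passed the adjusted p threshold, all upward, where 4.27% of all genes did. Of these 6, 1 also passed the fold threshold. *Hormad1*, whose axis protein controls break formation and synapsis, had 2345, 1814 and 2340.1 in SPG and 5125, 4093 and 4922 in PreL (log2 fold change 1.12, standard error 0.15, adjusted p = 0.00417). The call was lost without SPG replicate 2 (log2 fold change 0.99, adjusted p = 0.0139), where the fold change slipped below the threshold. *Sycp3*, the main component of the lateral element, had 11508, 10908 and 12039 in SPG and 25498, 19697 and 20323 in PreL (log2 fold change 0.92, standard error 0.13, adjusted p = 0.00494). *Sycp2*, its partner, had 2953, 4119.8 and 3037 in SPG and 6301, 7049 and 6520.4 in PreL (log2 fold change 0.99, standard error 0.15, adjusted p = 0.00587). Both lateral element genes were higher in every PreL library, from an already high level, without reaching the fold threshold. *Sycp1*, the transverse filament, had 13218, 15241 and 14412 in SPG and 16766, 16155 and 18762 in PreL and was not called (log2 fold change 0.27, adjusted p = 0.183). *Tex12* (log2 fold change 0.81), *Six6os1* (listed as *4930447C04Rik*, 0.72) and *Syce3* (0.63), all of the central element, passed the adjusted p. *Sycp3* shares exon sequence with its neighbour *Chpt1*, and the counting of strand is not given in the sources used here.

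The 4 meiotic cohesin subunits went in different directions. *Rec8*, the kleisin that holds sister chromatids together through meiosis, had 562, 578 and 372 in SPG and 199.9, 191 and 169.7 in PreL. It was 2.7-fold lower in PreL (log2 fold change -1.36, standard error 0.24, adjusted p = 0.0122), and the call held in every alternative. *Rad21l*, the other meiotic kleisin, had 53.2, 37.2 and 19.5 in SPG and 162, 143 and 189 in PreL, which was 4.49-fold higher (log2 fold change 1.96, standard error 0.40, adjusted p = 0.0184). Its call was lost without SPG replicate 3 or PreL replicates 2 or 4 (log2 fold changes 1.67 to 2.05, adjusted p from 0.0501 to 0.072) and with no filter on low values. *Smc1b*, the meiotic SMC subunit, had 9463, 10459.6 and 10162 in SPG and 16976, 17212 and 20029 in PreL (log2 fold change 0.85, standard error 0.12, adjusted p = 0.00473), below the fold threshold. *Stag3*, which joins both kleisins, had 4921, 5093 and 4502 in SPG and 4343, 4738 and 5233 in PreL and overlapping groups. Of 15 general cohesin genes, *Esco2* alone was called, where 2.54% of all genes were called higher and 1.21% lower. This acetyltransferase locks cohesin onto replicating chromatids, and its values were 2739, 3557 and 2968 in SPG and 7730.5, 7602 and 9669 in PreL, with no overlap and a rise of 2.7-fold (log2 fold change 1.43, standard error 0.14, adjusted p = 0.00114). *Nipbl*, the cohesin loader, passed the adjusted p (log2 fold change 0.82, adjusted p = 0.0244). The mitotic kleisin *Rad21* had a log2 fold change of -0.20 (adjusted p = 0.421).

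For the formation of double-strand breaks 9 of 10 genes were tested, and 2 rose and none fell (median 0.61). Over all genes 2.54% were called higher, and 4.27% passed the adjusted p upward. *Mei4*, part of the complex that activates SPO11, had 165, 169.9 and 231 in SPG and 500.4, 411 and 519 in PreL (log2 fold change 1.30, standard error 0.24, adjusted p = 0.0128). *Iho1* (listed as *Ccdc36*), which binds HORMAD1 and recruits that complex to the axis, had 529, 560.3 and 360.1 in SPG and 1135, 818 and 1078 in PreL (log2 fold change 1.06, standard error 0.21, adjusted p = 0.0181). *Mei4* kept its call in every alternative, while that of *Iho1* was lost without SPG replicate 3 (log2 fold change 0.86, adjusted p = 0.0785), without PreL replicate 1 (log2 fold change 0.97, adjusted p = 0.0472) and with no filter on low values. *Prdm9*, the methyltransferase that marks hotspots, had 538, 734 and 677 in SPG and 1037, 1016 and 1543 in PreL and passed the adjusted p alone (log2 fold change 0.86, adjusted p = 0.0314). Its reader *Zcwpw1* also did (log2 fold change 0.55, adjusted p = 0.0325). *Spo11*, the nuclease itself, had 121, 75.7 and 75.7 in SPG and 143, 313 and 38 in PreL. The *Spo11* groups overlapped widely.

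Of 29 genes of strand invasion and repair, all tested, 3 rose and none fell, and 8 passed the adjusted p upward (median 0.45). The shares over all genes were 2.54% called higher and 4.27% by the adjusted p alone. *Rad51ap2*, a testis gene of homologous recombination, had 15.9, 18.6 and 1.22 in SPG and 245, 217 and 183 in PreL. It was 18-fold higher in PreL (log2 fold change 3.46, standard error 0.46, adjusted p = 0.00423), and the call held in every alternative. *Meiob* (listed as *4930528F23Rik*), a single-stranded DNA binding protein of meiosis, had 22.3, 121 and 70.8 in SPG and 532, 297 and 443 in PreL (log2 fold change 2.60, standard error 0.47, adjusted p = 0.0122). Its call was lost without SPG replicate 3 (log2 fold change 2.70, adjusted p = 0.0534) and with no filter on low values. *Spata22*, the partner of MEIOB, had 1.06, 0 and 2.44 in SPG and 33.1, 34 and 27.8 in PreL and at most 3 reads in every SPG library, which makes it at least 8.76-fold higher (limma adjusted p = 0.049). This call was lost without SPG replicates 1, 2 or 3 or PreL replicate 4 (log2 fold changes 1.82 to 1.99, adjusted p from 0.0882 to 0.108), without rescaling of the calibrated values, with a pseudocount of 1, with a pseudocount of 50 and in edgeR. *Dmc1*, the recombinase specific to meiosis, had 966, 1133 and 1095 in SPG and 2424, 1870.2 and 2139.8 in PreL, a ratio of 2.01 that lay at the fold threshold (log2 fold change 0.999, standard error 0.15, adjusted p = 0.00601). *Brca2*, a mediator of strand invasion, had a log2 fold change of 0.59 (adjusted p = 0.0365) and *Rad54b* 0.87 (adjusted p = 0.0234). *Mcm8* and *Zswim7* lay below the SPG libraries in every PreL library, with log2 fold changes of -0.46 and -0.52, and were not called (adjusted p = 0.0907, then 0.0775).

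Crossover genes were represented by 13 of 17 members, and *Hfm1* alone rose, where 2.54% of all genes did. This DNA helicase of the crossover pathway had 524, 402 and 565 in SPG and 1728, 1831 and 1779 in PreL, a 3.58-fold rise with almost the same value in all PreL libraries (log2 fold change 1.83, standard error 0.17, adjusted p = 0.000585). The call held in every alternative. *Hfm1* lies at chromosome 5, 106840192 to 106926321 and *Stra8* at chromosome 6, 34920163 to 34939344 in GRCm38 (GENCODE M21). *Msh4* and *Msh5*, which stabilise crossover intermediates, had log2 fold changes of 0.79 and 0.65 (adjusted p = 0.385, then 0.254), and the X-linked crossover gene *Tex11* had -0.24 (adjusted p = 0.286). Among 13 genes that attach telomeres to the nuclear envelope, 3 rose and none fell, against 2.54% and 1.21% of all genes. *Spdya*, also called Speedy A, activates CDK2 at telomeres and had 287, 269.5 and 200.2 in SPG and 1397, 1254 and 1174 in PreL (log2 fold change 2.31, standard error 0.19, adjusted p = 0.000323). *Terb1* (listed as *Ccdc79*), which anchors the telomere protein TRF1, had 298, 226 and 369.9 in SPG and 1055, 791 and 1205 in PreL (log2 fold change 1.74, standard error 0.23, adjusted p = 0.00423). The calls of *Spdya* and *Terb1* held in every alternative. *Majin* (listed as *1700123I01Rik*), their membrane anchor, rose 2.24-fold (log2 fold change 1.13, standard error 0.25, adjusted p = 0.0248), and its call was lost without SPG replicates 2 or 3 or PreL replicates 1 or 4 (log2 fold changes 0.97 to 1.14, adjusted p from 0.0529 to 0.0966) and with no filter on low values. *Cdk2*, the partner kinase, passed the adjusted p alone (log2 fold change 0.56, adjusted p = 0.0492). Some exons of *Spdya* overlap *Trmt61b*.

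**Figure D3:**
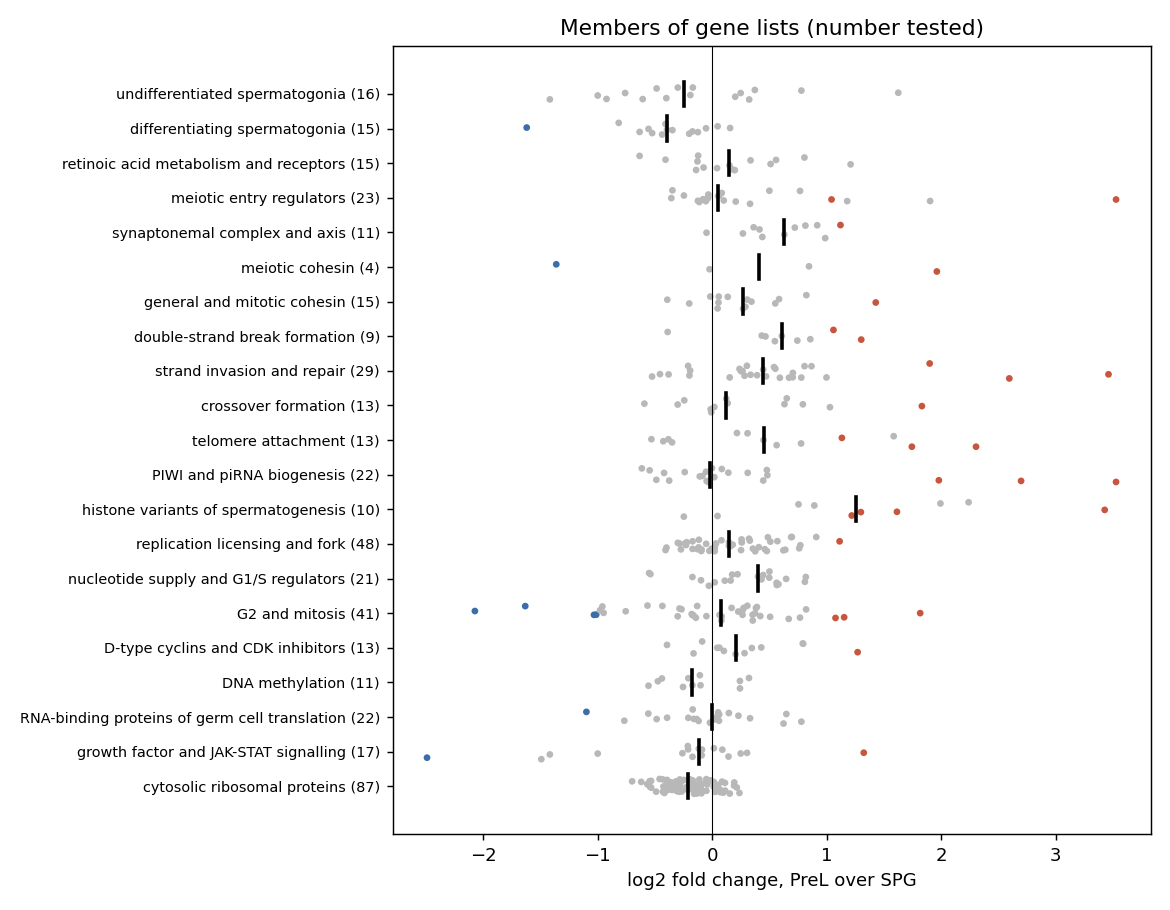
Log2 fold change of PreL over SPG (x axis) of the tested members of 21 gene lists (rows, with the number tested), 1 point per gene. Red marks members called higher, blue members called lower, gray members not called, and the black bar is the median of the list. The lists of the synaptonemal complex, break formation, strand invasion, telomere attachment and histone variants lie mostly to the right of 0, and that of the ribosomal proteins mostly to the left.

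Of 11 histone variants used in spermatogenesis, 10 were tested, and 4 rose and none fell (median 1.26), where 2.54% of all genes rose. *H2bc1* (listed as *Hist1h2ba*), the testis-specific H2B, had 9.57, 11.9 and 26.9 in SPG and 289.9, 242 and 252 in PreL (log2 fold change 3.43, standard error 0.39, adjusted p = 0.00247). *H2ax*, the variant that is phosphorylated at DNA breaks (listed as *H2afx*), rose 2.49-fold (log2 fold change 1.30, standard error 0.24, adjusted p = 0.0132), and its call was lost without SPG replicate 3 (log2 fold change 1.10, adjusted p = 0.0574) and without PreL replicate 2 (log2 fold change 1.30, adjusted p = 0.0511). The linker histone *H1f0* rose 2.36-fold (log2 fold change 1.22, standard error 0.16, adjusted p = 0.00417). *H1f10* (listed as *H1fx*) rose 3.38-fold (log2 fold change 1.61, standard error 0.31, adjusted p = 0.0147), a call lost without SPG replicate 3 (log2 fold change 1.61, adjusted p = 0.0614), without PreL replicate 2 (log2 fold change 1.58, adjusted p = 0.0604) and with no filter on low values. Of these 4, *H2bc1* and *H1f0* kept their calls in every alternative. The canonical histones of the replication clusters were looked at after values had been seen. Their transcripts carry no poly(A) tail in dividing cells, and the libraries were primed with oligo(dT). Of 59 genes, 9 reached the read minimum and 3 of these were called higher. Together the 59 genes took 15.6, 13.5 and 16.5 in SPG and 51.3, 50.1 and 47.7 in PreL RPM (reads per 1000000 recovered reads), with a ratio of 3.27 and no overlap. Without SPG replicate 3 none of the 3 calls was left, and without SPG replicate 1 or PreL replicate 2 there was 1. *Hist1h2bm* had 18.1, 45.1 and 28.1 in SPG and 213, 113 and 146 in PreL (log2 fold change 2.06, adjusted p = 0.0187), a call lost without SPG replicate 3 (log2 fold change 2.04, adjusted p = 0.0723), without PreL replicate 1 (log2 fold change 1.84, adjusted p = 0.0636) and with no filter on low values. *Slbp*, whose protein binds the stem-loop of these transcripts, had 6719.8, 6005 and 6702 in SPG and 13335, 9541 and 11482 in PreL and passed the adjusted p alone (log2 fold change 0.81, standard error 0.14, adjusted p = 0.0104).

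Of 23 genes of PIWI proteins and piRNA biogenesis, which silence transposons, 22 were tested, and *Mybl1*, *Tdrd6* and *Piwil1* were higher in PreL. Over all genes 2.54% were called higher. *Piwil1* (MIWI), the PIWI protein of pachytene spermatocytes and spermatids, had 114, 99.6 and 237 in SPG and 449, 1501 and 287 in PreL. *Tdrd6* had 41.5, 6.64 and 86.7 in SPG and 159, 503 and 252 in PreL. In both genes PreL replicate 2 was far above the other PreL libraries. The call of *Piwil1* (limma adjusted p = 0.0433) was lost without SPG replicates 1, 2 or 3 or PreL replicates 1 or 2 (log2 fold changes 1.30 to 2.34, adjusted p from 0.0548 to 0.116), with a pseudocount of 1, with no filter on low values and in edgeR. The call of *Tdrd6* (limma adjusted p = 0.0274) was lost without SPG replicate 1 or PreL replicates 2 or 4 (log2 fold changes 2.26 to 2.82, adjusted p from 0.0554 to 0.105), with no filter on low values and in edgeR. *Piwil2*, the PIWI protein MILI, had 2808, 2937 and 2559.8 in SPG and 2752, 2717 and 2254 in PreL. The germ cell helicase gene *Ddx4* had 5925, 6814 and 6227 in SPG and 5975, 6913 and 6336 in PreL. The groups overlapped for both genes.

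DNA replication genes gave a single call. Of 48 genes of licensing and the replication fork, 1 rose and none fell, and 7 passed the adjusted p upward (median 0.15). Over all genes 2.54% were called higher and 4.27% passed the adjusted p upward, so a single call was nothing particular to this list. *Prim1*, the primase that starts each new strand, had 2061, 1786 and 1719 in SPG and 4888, 3197 and 4139 in PreL (log2 fold change 1.11, standard error 0.16, adjusted p = 0.00585), with the call lost without PreL replicate 1 (log2 fold change 0.97, adjusted p = 0.0159). *Pcna*, the sliding clamp, had 7956, 8171 and 9027 in SPG and 13839, 12855 and 14059 in PreL (log2 fold change 0.70, standard error 0.11, adjusted p = 0.00913). The helicase subunits *Mcm2*, *Mcm4* and *Mcm5* had log2 fold changes of -0.24, -0.28 and -0.22, none called (adjusted p = 0.309, 0.215, then 0.356). *Gmnn*, geminin, which blocks a second licensing, passed the adjusted p with 0.69 (adjusted p = 0.0102), and *Cdc6*, a licensing factor, had -0.30 (adjusted p = 0.252). *Ccne2*, the cyclin of S phase entry, had 1468, 1387 and 1578 in SPG and 1422, 2448 and 3101 in PreL, with overlap. *Cdkn1a* (p21), an inhibitor of CDKs, rose 2.49-fold (limma adjusted p = 0.047), but the call was lost without SPG replicates 1, 2 or 3 or PreL replicates 1, 2 or 4 (log2 fold changes 0.97 to 1.46, adjusted p from 0.0566 to 0.125), with a pseudocount of 1, with a pseudocount of 50, with no filter on low values and in edgeR.

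The 41 genes of G2 and mitosis were called in both directions. In 12 of them every PreL library lay above every SPG library, against 15.6% of all genes. In 13 every PreL library lay below, against 14.8% of all genes. Of the 41 genes, 3 were called higher and 4 lower, with a median of 0.08, where 2.54% and 1.21% of all genes were called. The 3 rising calls held without any single library, while the falling ones numbered 2 without SPG replicate 3 or PreL replicate 2 and 6 without PreL replicate 1. The 4 genes called lower are given first. *Ccnb1*, cyclin B1, had 5001, 5239 and 5714 in SPG and 1914, 1515 and 1713 in PreL and was 3.1-fold lower (log2 fold change -1.63, standard error 0.13, adjusted p = 0.000276). *Cenpa* had 6195, 5591 and 6235 in SPG and 1725, 1322 and 1253 in PreL and was 4.19-fold lower (log2 fold change -2.07, standard error 0.15, adjusted p = 9.53e-05). Both calls held in every alternative. *Ccnb2*, cyclin B2, had 2726, 3172 and 3585 in SPG and 1712, 1445 and 1511 in PreL (log2 fold change -1.01, standard error 0.14, adjusted p = 0.00473). *Plk1*, the polo-like kinase, had 599.6, 531 and 609 in SPG and 356, 225 and 268 in PreL (log2 fold change -1.03, standard error 0.22, adjusted p = 0.0227). These last 2 lay near the fold threshold. *Ccnb2* lost its call without SPG replicate 3 or PreL replicates 2 or 4 (log2 fold changes -0.99 to -0.92, adjusted p from 0.0117 to 0.041), without rescaling of the calibrated values, with a pseudocount of 50 and in the fit of all 17 libraries. *Plk1* lost its call without SPG replicates 1 or 3 or PreL replicate 2 (log2 fold changes -1.01 to -0.88, adjusted p from 0.0623 to 0.0949), without rescaling of the calibrated values, with a pseudocount of 50 and with no filter on low values. *Cdc25b*, *Kif20a*, *Cdc20* and *Pttg1* passed the adjusted p alone, with log2 fold changes of -0.98, -0.96, -0.75 and -0.56. In the other direction, *Top2a* had 3569.8, 4563 and 3981 in SPG and 14223, 13216 and 15188 in PreL (log2 fold change 1.82, standard error 0.13, adjusted p = 9.53e-05). *Bub1*, the checkpoint kinase of kinetochores, had 1902, 2488 and 2554 in SPG and 5159, 4704 and 5519.9 in PreL (log2 fold change 1.15, standard error 0.14, adjusted p = 0.0036). *Aurkb*, the kinase of the chromosomal passenger complex, had 382, 434 and 438 in SPG and 976, 740.4 and 981 in PreL (log2 fold change 1.08, standard error 0.18, adjusted p = 0.0102). The calls of *Top2a*, *Bub1* and *Aurkb* held in every alternative. *Mki67*, a mark of cycling cells, had 2613, 2469.5 and 2379 in SPG and 3058, 2224 and 3219 in PreL, and its groups overlapped.

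**Figure D4:**
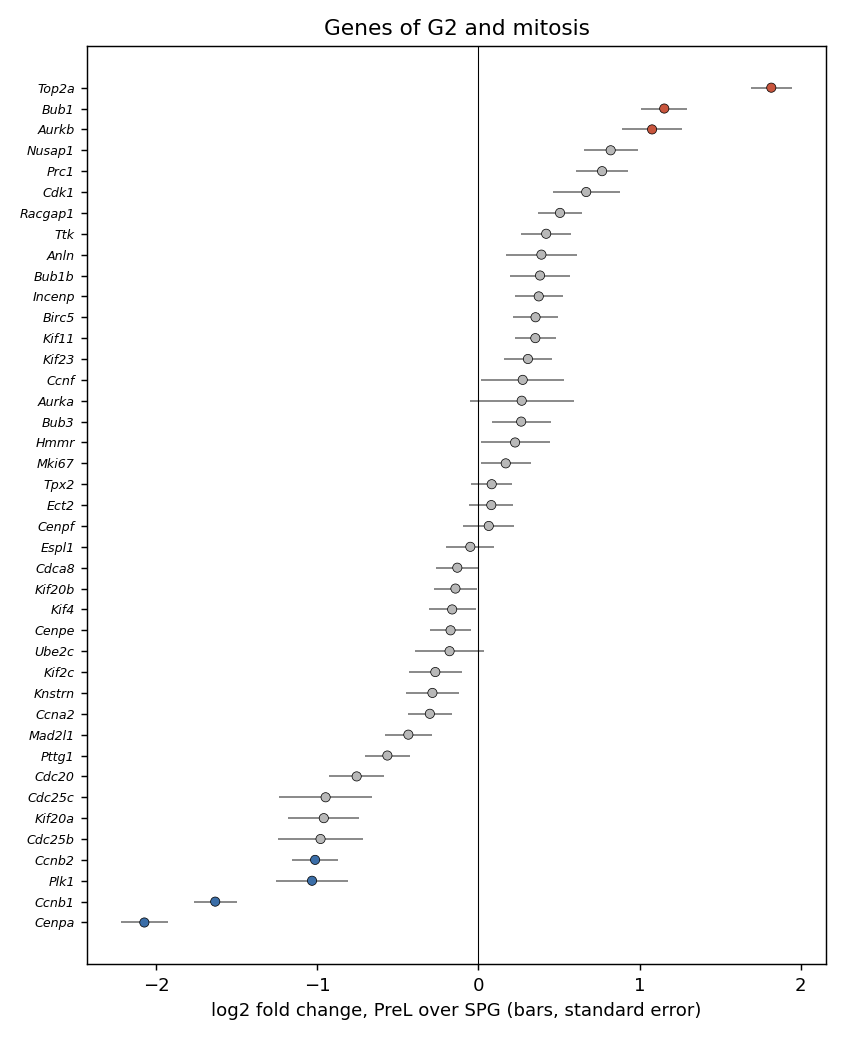
Log2 fold change of PreL over SPG (x axis) with its standard error (bars) for the 41 tested genes of G2 and mitosis (rows, ordered by value). Red marks the 3 genes called higher, *Top2a*, *Bub1* and *Aurkb*, and blue the 4 called lower, *Ccnb2*, *Plk1*, *Ccnb1* and *Cenpa*.

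Promoter windows were available for 35 of these 41 genes (38 windows). The CHR element TTTGAA, through which late cell cycle genes are repressed in resting cells, was in 29 of the 38 (76.3%) on either strand, against 12.3% of the windows of all genes tested. The CCAAT box, spelled CCAAT, was in 30 (78.9%) against 38.5%. Windows of genes that fell (*Cenpa*, *Ccnb1*, *Ccnb2*) and of 1 gene that rose (*Top2a*) are shown because both directions carried these letters, which are in capitals. *Ccnb1* held no TTTGAA in its window. The windows lie at chr5:30666636-30666935 (plus strand), chr13:100786437-100786736 (minus strand), chr9:70421505-70421804 (minus strand) and chr11:99024140-99024439 (minus strand).
Cenpa: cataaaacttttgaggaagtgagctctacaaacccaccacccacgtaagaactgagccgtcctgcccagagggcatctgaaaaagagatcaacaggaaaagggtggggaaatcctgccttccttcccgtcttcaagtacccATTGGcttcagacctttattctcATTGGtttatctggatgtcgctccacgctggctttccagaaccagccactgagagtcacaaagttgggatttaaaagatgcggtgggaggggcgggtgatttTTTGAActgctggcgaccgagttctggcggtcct
Ccnb1: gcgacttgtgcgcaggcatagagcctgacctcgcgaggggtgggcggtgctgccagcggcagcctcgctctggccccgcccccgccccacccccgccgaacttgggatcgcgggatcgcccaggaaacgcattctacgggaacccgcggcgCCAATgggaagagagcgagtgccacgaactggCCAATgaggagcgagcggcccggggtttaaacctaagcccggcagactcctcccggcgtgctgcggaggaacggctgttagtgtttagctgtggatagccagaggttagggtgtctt
Ccnb2: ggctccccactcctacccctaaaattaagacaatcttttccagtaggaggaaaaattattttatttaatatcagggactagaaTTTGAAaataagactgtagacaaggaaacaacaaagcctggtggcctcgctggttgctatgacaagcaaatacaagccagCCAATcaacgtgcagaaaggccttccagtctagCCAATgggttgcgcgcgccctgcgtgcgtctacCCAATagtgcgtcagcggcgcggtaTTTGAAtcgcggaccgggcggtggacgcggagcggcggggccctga
Top2a: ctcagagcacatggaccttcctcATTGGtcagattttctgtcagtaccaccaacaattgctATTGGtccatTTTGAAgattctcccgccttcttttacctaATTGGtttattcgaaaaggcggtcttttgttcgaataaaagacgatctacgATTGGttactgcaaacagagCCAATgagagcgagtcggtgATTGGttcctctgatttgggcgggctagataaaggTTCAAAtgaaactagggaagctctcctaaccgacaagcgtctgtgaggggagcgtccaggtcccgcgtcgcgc

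Spermatogonial genes gave a single call. Over all genes 1.21% were called lower and 3.75% in either direction, and 6272 of the 12657 tested had a negative log2 fold change. All 15 genes of differentiating spermatogonia were tested, and 13 had a negative log2 fold change (median -0.39), but *Ctcfl* alone was called. This germline paralog of CTCF, also called BORIS, had 1687, 1834 and 1885 in SPG and 402, 558 and 863 in PreL (log2 fold change -1.62, standard error 0.23, adjusted p = 0.00532), and the call held in every alternative. *Uchl1*, a ubiquitin hydrolase of spermatogonia, had 3274, 3165 and 3782 in SPG and 2026, 1811 and 1947 in PreL and passed the adjusted p (log2 fold change -0.82, adjusted p = 0.00719). *Dnmt3b*, the de novo DNA methyltransferase, had 693, 1062 and 1040.0 in SPG and 576, 589 and 701 in PreL (adjusted p = 0.107). *Sohlh1* and *Sohlh2*, transcription factors of differentiation, had log2 fold changes of -0.053 and -0.12 (adjusted p = 0.906, then 0.735). *Dmrt1*, which holds off meiosis in spermatogonia, had 4793, 6503 and 6105 in SPG and 3941, 4601 and 5097 in PreL (log2 fold change -0.35, adjusted p = 0.168). In the undifferentiated list 16 of 26 genes reached the read minimum and none was called. Among those, *Sall4*, a transcription factor, lay lower in every PreL library with 579, 1012 and 836 in SPG and 401, 467 and 525 in PreL (adjusted p = 0.062). *Id4* had 81.9, 47.8 and 18.3 in SPG and 128, 361 and 76.1 in PreL, with overlap and the highest value in PreL replicate 2.

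Of 24 signalling genes 17 were tested, with 1 called lower and 1, *Fos*, called higher. *Fos* is described with the immediate early genes. Of 25 RNA-binding genes 22 were tested, with 1 called lower and none higher. Over all genes 2.54% were called higher and 1.21% lower. *Spry2*, an inhibitor of receptor tyrosine kinase signalling, had 591, 1429 and 1061 in SPG and 50.3, 228 and 354 in PreL, the largest fall in its list at 4.87-fold (limma adjusted p = 0.0248). The call was lost without SPG replicates 2 or 3 or PreL replicate 2 (log2 fold changes -2.71 to -2.22, adjusted p from 0.0522 to 0.1) and with no filter on low values. *Ret*, the GDNF receptor, had 9.57, 78.3 and 19.5 in SPG and 2.65, 8.49 and 1.46 in PreL and was not called (log2 fold change -1.42, adjusted p = 0.192). *Igf2bp1*, an mRNA-stabilising protein, had 1023, 894 and 767 in SPG and 509.7, 314 and 429 in PreL (log2 fold change -1.10, standard error 0.21, adjusted p = 0.016), with the call lost without SPG replicates 1 or 3 or PreL replicate 2 (log2 fold changes -1.21 to -0.91, adjusted p from 0.0542 to 0.0557). *Msi2*, a translational repressor of spermatogonia, passed the adjusted p (log2 fold change -0.77, adjusted p = 0.034). No gene of the 11 tested for DNA methylation was called. The maintenance enzyme *Dnmt1* had 2248, 2102 and 2189 in SPG and 2636, 2493 and 2617 in PreL.

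The cytosolic ribosomal proteins, picked by symbol, lay slightly lower in PreL as a group. None of the 87 tested was called, and 8 passed the adjusted p downward (limma), where 3.02% of all genes did. In 45 of the 87 every PreL library lay below every SPG library, against 14.8% of all genes, and 68 had a negative log2 fold change (median -0.21). Their summed share was 56941, 55774 and 58620.3 in SPG and 50544, 48324 and 46481 in PreL RPM, without overlap. The ratio was 0.848 (exact permutation test, two-sided, p = 0.1, the smallest possible). *Rps2* had 12803, 14561 and 16316 in SPG and 9791, 10949 and 9114 in PreL (log2 fold change -0.55, adjusted p = 0.0333). Several of these genes have processed pseudogenes that share their sequence.

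Genes of cholesterol synthesis and uptake were grouped after values had been seen, so no test of the group is given. Of 25 genes, 23 were tested, and 22 had a negative log2 fold change, with 4 called lower, or 1 without SPG replicate 3. Over all genes 1.21% were called lower, and 6272 of the 12657 tested had a negative log2 fold change. *Sc4mol* (also *Msmo1*), a sterol methyl oxidase, had 1043, 1438 and 825 in SPG and 500.4, 449 and 414 in PreL (log2 fold change -1.23, standard error 0.21, adjusted p = 0.0106). *Dhcr7*, which makes cholesterol from its last precursor, had 438, 352 and 482 in SPG and 181, 146 and 211 in PreL (log2 fold change -1.20, standard error 0.25, adjusted p = 0.0193). PreL lay below SPG in every library for both. *Sc4mol* kept its call in every alternative. The call of *Dhcr7* was lost without SPG replicates 1 or 3 or PreL replicate 2 (log2 fold changes -1.18 to -1.06, adjusted p from 0.0566 to 0.0945) and with no filter on low values. *Insig1*, a sensor of the pathway, had 3839, 7977 and 6194 in SPG and 1652, 3349.6 and 4581 in PreL, with overlap (log2 fold change -0.96, adjusted p = 0.0981).

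Markers of some other cells differed between the groups. Among spermatid genes 18 of 19 were tested, and 8 were called higher in PreL and none lower, where 2.54% of all genes were called higher. The log2 fold change was positive in 13 of the 18 and negative in 5, down to -1.11. In 11 of them every PreL library lay above every SPG library, against 15.6% of all genes. The spermatid list summed to 409, 150.3 and 273 in SPG and 1022, 1178 and 689 in PreL RPM. *Prm1*, a protamine of condensing sperm chromatin, had 906, 280.1 and 637 in SPG and 3760.0, 3174 and 2179 in PreL (log2 fold change 2.42, standard error 0.35, adjusted p = 0.00527), and *Tnp1*, a transition protein, had 585, 228 and 319 in SPG and 1798, 2476 and 1708 in PreL (log2 fold change 2.46, standard error 0.29, adjusted p = 0.00288). The genes of pachytene and later spermatocytes, with 20 of 21 tested and 9 higher, summed to 647, 422 and 575 in SPG and 1133, 2239 and 830.2 in PreL RPM. PreL replicate 2 stood far above the other PreL libraries for this list. *Ldhc*, the lactate dehydrogenase of late germ cells, had 1752, 712 and 1350.1 in SPG and 3573, 9870.5 and 2416 in PreL (limma adjusted p = 0.0313), a call lost without SPG replicates 2 or 3 or PreL replicate 2 (log2 fold changes 1.30 to 1.96, adjusted p from 0.0695 to 0.097), with no filter on low values and in the fit of all 17 libraries. Without PreL replicate 2 the calls were 3 of the spermatid and 2 of the pachytene list, and without SPG replicate 3 they were 3 and 3. Without SPG replicate 2 the pachytene list had 6. In 21 tested genes of the axoneme and sperm tail, a list chosen after values had been seen, 7 were higher, and the sum was 312, 211 and 267 in SPG and 496, 936 and 393 in PreL RPM. That count was 1 without SPG replicate 3, 3 without SPG replicate 2 and 2 without PreL replicate 2.

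Sertoli cell genes showed 7 higher of 14 tested of 20, among them *Cst9*, *Cst12*, *Defb36* and *Wt1*, while *Amh*, *Gata4*, *Fshr* and *Dhh* stayed under the read minimum. Over all genes 2.54% were called higher. The sum was 321, 326 and 280.2 in SPG and 482, 503 and 505 in PreL RPM, and the calls fell to 2 without PreL replicate 2 and to 2 without SPG replicate 3. *Cst9*, a cystatin of Sertoli cells, had 676, 416 and 448 in SPG and 1559.6, 2274 and 2858 in PreL (log2 fold change 2.09, standard error 0.24, adjusted p = 0.00247), and the calls of *Cst9* and *Cst12* were lost in the fit of all 17 libraries. In the macrophage and blood list 12 of 16 genes were tested, and *H2-Ab1* alone was called higher. The log2 fold change was positive in 10 of the 12 and negative in 2, with a median of 1.07. The list summed to 30.7, 30.4 and 38.5 in SPG and 49.8, 49.6 and 80.9 in PreL RPM, without overlap. *H2-Ab1* had 22.3, 42.5 and 85.4 in SPG and 271, 167 and 224 in PreL. Its call was lost without PreL replicate 1 (log2 fold change 1.90, adjusted p = 0.0592), without PreL replicate 2 (log2 fold change 2.23, adjusted p = 0.0511) and with no filter on low values. The Leydig, myoid and endothelial lists gave 1 call in all, a Leydig list member that was lower, and none without SPG replicate 3. Over all genes 1.21% were called lower. Of 20 immediate early genes, which respond to handling, 15 were tested, and 2 were called higher and none lower. The log2 fold change was positive in 8 of the 15 and negative in 7, with a median of 0.036. *Fos* had 147, 143 and 121 in SPG and 286, 369.5 and 430.0 in PreL (log2 fold change 1.32, adjusted p = 0.0171). *Btg2* had 389, 133 and 474 in SPG and 784, 1077 and 864 in PreL (log2 fold change 1.59, adjusted p = 0.0317). *Fos* lost its call without SPG replicate 3 (log2 fold change 1.24, adjusted p = 0.0725) and without PreL replicate 2 (log2 fold change 1.30, adjusted p = 0.0664), and *Btg2* without SPG replicate 3 or PreL replicates 2 or 4 (log2 fold changes 1.47 to 1.93, adjusted p from 0.0525 to 0.106), with no filter on low values and in edgeR. The part of these cells and of handling in the differences reported here was not tested.

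**Figure D5:**
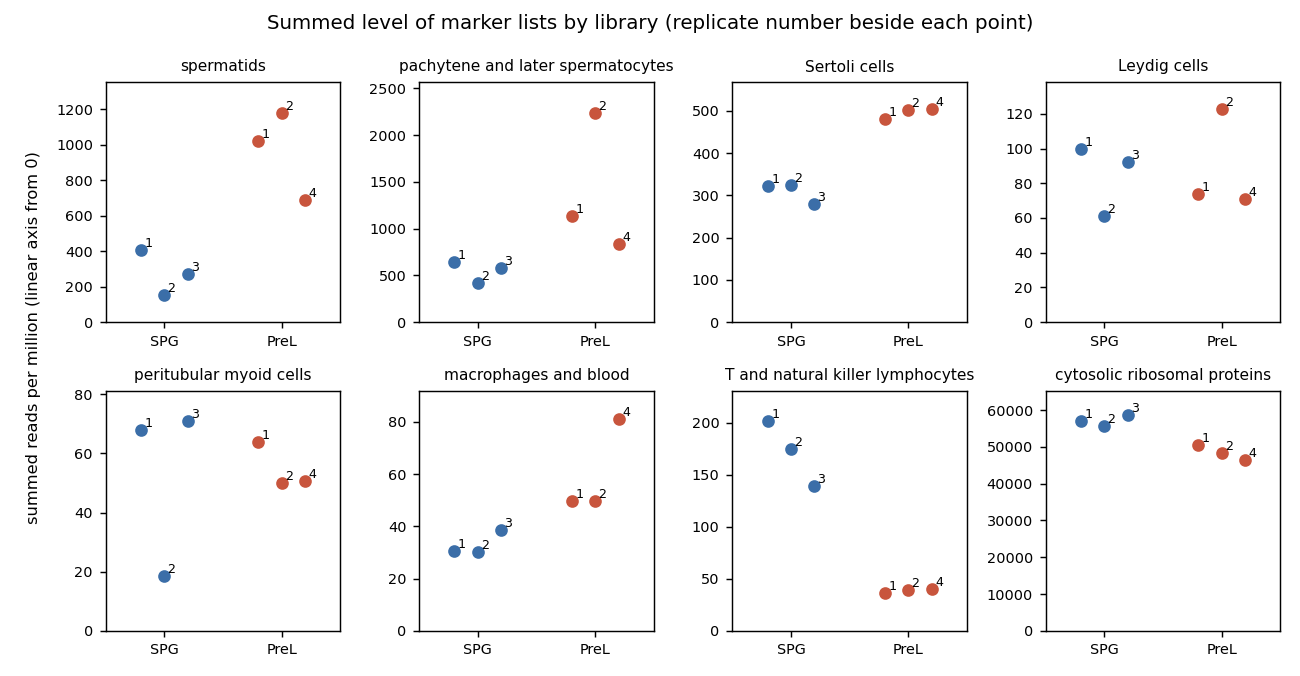
Summed RPM (y axis, linear from 0, scaled to each panel) of 8 gene lists in the SPG libraries (blue) and PreL libraries (red), with the replicate number beside each point. Late germ cell and Sertoli sums are higher in PreL, lymphocyte and ribosomal protein sums are higher in SPG, and PreL replicate 2 stands apart for the list of pachytene and later spermatocytes.

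Lymphocyte transcripts went the other way. Genes of T and natural killer cells were grouped after values had been seen, so no test of the group is given. Of 26 genes, 22 were tested, and 9 were called lower in PreL, where 1.21% of all genes were. The list summed to 201, 174 and 139 in SPG and 36.8, 39.5 and 39.7 in PreL RPM. *Gzma*, granzyme A of cytotoxic lymphocytes, had 338, 183 and 225 in SPG and 0, 0 and 0 in PreL. With no read in any PreL library it was at least 59.2-fold lower, counted against 3 reads per library (limma adjusted p = 0.000632). *Cd3g*, a chain of the T cell receptor complex, had 248, 558 and 303 in SPG and 39.7, 42.5 and 41 in PreL (log2 fold change -2.81, standard error 0.36, adjusted p = 0.00391). *Ccl5*, a chemokine of the same cells, had 273, 151 and 129 in SPG and 9.27, 0 and 29.3 in PreL (log2 fold change -3.24, adjusted p = 0.01), a call lost with no filter on low values. The leukocyte genes *Arhgdib* (381, 532 and 332 in SPG and 119, 26.9 and 17.6 in PreL) and *Ly6a* (240.3, 386 and 236 in SPG and 27.8, 56.6 and 10.2 in PreL) behaved likewise. *Ptprc*, CD45, had 148, 220.4 and 188 in SPG and 70.2, 87.8 and 143 in PreL and was not called (adjusted p = 0.142). Thus 4 of the 8 largest falls by the naming rule, *Gzma*, *Arhgdib*, *Ly6a* and *Cd3g*, were genes of lymphocytes or other leukocytes. This did not extend to the macrophage and blood list, in which 10 of 12 tested genes had a positive log2 fold change. The lymphocyte list had 3 calls without SPG replicate 3, 4 without SPG replicate 1, and 5 without SPG replicate 2 or PreL replicate 2.

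X-linked genes were called about as often as autosomal ones. Of 509 tested on the X chromosome, 15 (2.95%) were higher and 6 (1.18%) lower, with a median log2 fold change of -0.012, against 2.53% and 1.20% of 12035 autosomal genes and a median of 0.0073.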

How the data were processed

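RNA of FACS-sorted cells was sequenced by Smart-seq2 in 151 bp pairs. The deposited table holds an ERCC-calibrated signal per gene and library, which the authors made by aligning reads, counting them by gene and adjusting the counts by the ERCC spike-ins and cell input. The submitters' processing notes name TopHat2 2.1.1, Cufflinks 2.2.1, HTSeq 0.11.2 and DESeq2. The methods name the mouse build mm10, and whether strand was used in counting is not given in the sources used here.

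Each column was divided by its smallest value above 0, and 100% of values came out whole within a tolerance of 0.01, so whole reads were recovered (1 read was worth 1 to 1.63 calibrated units). Genes with a mean of 10 reads or more were kept, the calibrated signal was rescaled by size factors from the median of ratios, and log2(value + 10) was tested in limma 3.58.1 (R 4.3.3) on the 6 libraries, with the trend and Benjamini-Hochberg adjustment over 12657 genes. A floor of 3 reads set the bounds of genes with no more than that in a group. Such bounds and read totals cover counting error only. edgeR 4.0.16 and DESeq2 1.42.0 on recovered reads, other pseudocounts, filters and scalings, a replicate block and leaving out each library were the alternatives. No pair of libraries agreed within sampling noise. On counts simulated for the 12657 genes, 33 of 45 genes changed 4-fold and 14 of 50 changed 2-fold were called, with 3 false calls.

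Named genes were the anchor genes, the 8 largest and the 8 of smallest p in each direction averaging 100 reads or more, and for each list its 2 largest called members and its 2 most abundant ones. Genes that stand in the text as members of a list without meeting this rule were chosen after their values were seen. The members and lists were chosen with earlier results of these data known. RefSeq promoters (GRCm38.p6) were matched by symbol for 10134 of the 12657 genes. Some genes of the lists are counted but not reported here by name.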

Additional observations from a re-analysis of the deposited data

How the results depend on the processing

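Against 322 genes higher and 153 lower in PreL, the counts came to 332 and 95 without rescaling of the calibrated values (301 and 95 shared with the calls given; the median log2 fold change moved to 0.0761), 97 and 47 with no filter on low values, 516 and 232 in DESeq2, 483 and 238 in the limma fit of all 17 libraries, and 540 and 382 without a fold threshold. With 1 library left out they ranged from 78 (without SPG replicate 3) to 265 higher and from 27 (also without SPG replicate 3) to 140 lower (without PreL replicate 4 for both upper ends). TMM scaling, pseudocounts of 1 and 50, a minimum of 50 reads and edgeR (238 and 115) stayed within 1.5 times. The ratio of the total lay between 1.02 and 1.16 with 1 library left out and was 0.873 in recovered reads. The groups share only the replicate numbers 1 and 2, and same-numbered libraries deviated with a correlation of 0.144 and -0.0868. Libraries of unlike number gave correlations from -0.190 to 0.162. With 3 libraries per group this check could not decide whether the numbers pair libraries. With the replicate number as a block, 416 genes were higher and 213 lower, and among the genes named in the report the calls of *Stra8*, *Rad21l*, *Iho1*, *Spata22*, *Majin*, *Ccnb2*, *Plk1*, *Cdkn1a*, *Fos* and *S100a6* were not made. Of the 56 named genes that were called, 30 kept the call in every alternative, and of 70 not called 50 kept their direction and the lack of a call. No called gene changed direction. The settings that ended the most calls were the removal of SPG replicate 3 and the absence of a filter (20 each), and the removal of PreL replicate 2 (17). In the simulated counts 14 of 50 genes changed 2-fold were called. A 2-fold change lies at the fold threshold itself, so this share does not measure what depth and replication allow. A gene without a call was not shown to be unchanged. The cause of these shifts was not tested.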
